A study of Mus musculus with 14 samples.

Results

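Ionotropic glutamate receptors are the ligand-gated cation channels that carry fast excitatory transmission. Each receptor is assembled from subunits of 1 class: AMPA receptors (Gria genes) carry most of the rapid current, NMDA receptors (Grin genes) admit calcium and combine the obligatory Grin1 subunit with Grin2 subunits that set their kinetics, and kainate receptors (Grik genes) act on both sides of the synapse. In the striatum these receptors receive the input of cortex and thalamus onto the GABA-releasing projection neurons, the cells most affected in Huntington disease.

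The subunits described here were 10 genes fixed by symbol, Gria1 to Gria4, Grin1, Grin2a, Grin2b, Grin2c, Grik2 and Grik5, and every array probe set that the platform table assigns to 1 of them. This gave 12 probe sets for 9 of the 10 genes, out of 22626 probe sets tested. Gria1, Gria2 and Grin2b had 2 probe sets each and the other 6 genes had 1. Grin1 had none in the platform table and is not analysed here. No filter on low values was applied, so all 12 were tested. One gene is represented in gene counts by its probe set of highest mean signal, of 12393 genes so represented.

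Total RNA of striatum was measured by array in R6/2 mice and wild-type mice on a CBAxC57BL/6 background aged 6 weeks. The R6/2 transgene is a fragment of human HTT, its promoter region and exon 1 with an expanded CAG repeat, so R6/2 mice model a truncated and not a full-length mutant protein. Wild-type mice lack it. Animals of both genotypes had been given saline 30 to 60 minutes before they were killed, as control groups for 2 drug studies. The titles form 2 cohorts, M.C with 4 R6/2 and 4 wild-type arrays and Mith with 3 R6/2 and 3 wild-type arrays. Replicates are numbered 1 to 4 in M.C and 5 to 7 in Mith. Whether 2 arrays could share an animal is not stated, and the p-values therefore speak of the spread among arrays, whose number limits the precision.

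Levels are log2 probe set signals after centring each array on a common median of 7.10, changes are log2 R6/2 minus wild-type from a fit that also holds cohort, ± is the SE of a change or the SD of a level, and a probe set was called where limma gave an adjusted p (Benjamini-Hochberg, all probe sets) under 0.05. Over the whole array 578 probe sets were called, 2.55%, with a median change of 0.01. The array least like others of its cohort was R6/2 replicate 4, at a mean Spearman correlation of 0.981. Actb control probe sets at the 3′ and 5′ ends of the message differed, as 3′ minus 5′, by an amount used as a measure of RNA integrity in which intact RNA is low. It was 0.61 ± 0.18 in R6/2 and 0.37 ± 0.14 in wild-type arrays (SD, n = 7 each; exact permutation within cohorts, two-sided, p = 0.0186). Mean signals of the 13 measured genes shared by striatal projection neurons ran from 7.94 for Cnr1 to 11.05 for Arpp21, all above the array median, and Penk was at 11.44. Those of the 7 measured cortical glutamatergic genes ran from 3.65 for Tbr1 to 9.59 for Lamp5, so that the list did not lie on 1 side of the median. In tissue RNA, fewer cells of a type and less RNA per cell cannot be told apart.

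Of the 12 probe sets, 2 fell in R6/2 striatum and 0 rose. They were those of Grik2, a pore-forming kainate subunit, at 79.7% of the wild-type signal, and of Grin2c, an NMDA subunit best known from cerebellar granule cells, at 86.8%. At an unadjusted p under 0.05 there were 4 of 12, adding Gria3 and Gria4, beside 15.2% of all probe sets. The share called, 16.7% of 12, stands beside 2.55% of all probe sets. By gene, 2 of 9 fell, against 2.07% of 12393 genes called lower over the array. The median change of the 9 genes was -0.09, where that of all genes was 0.01. Of the 9, 7 lay below 0, beside 43.6% of all genes. Leaving out 1 array at a time lowered the count of called genes to 1 in 11 of 14 cases, and it was 2 without R6/2 replicate 2, R6/2 replicate 4 or wild-type replicate 5.

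**Figure D1:**
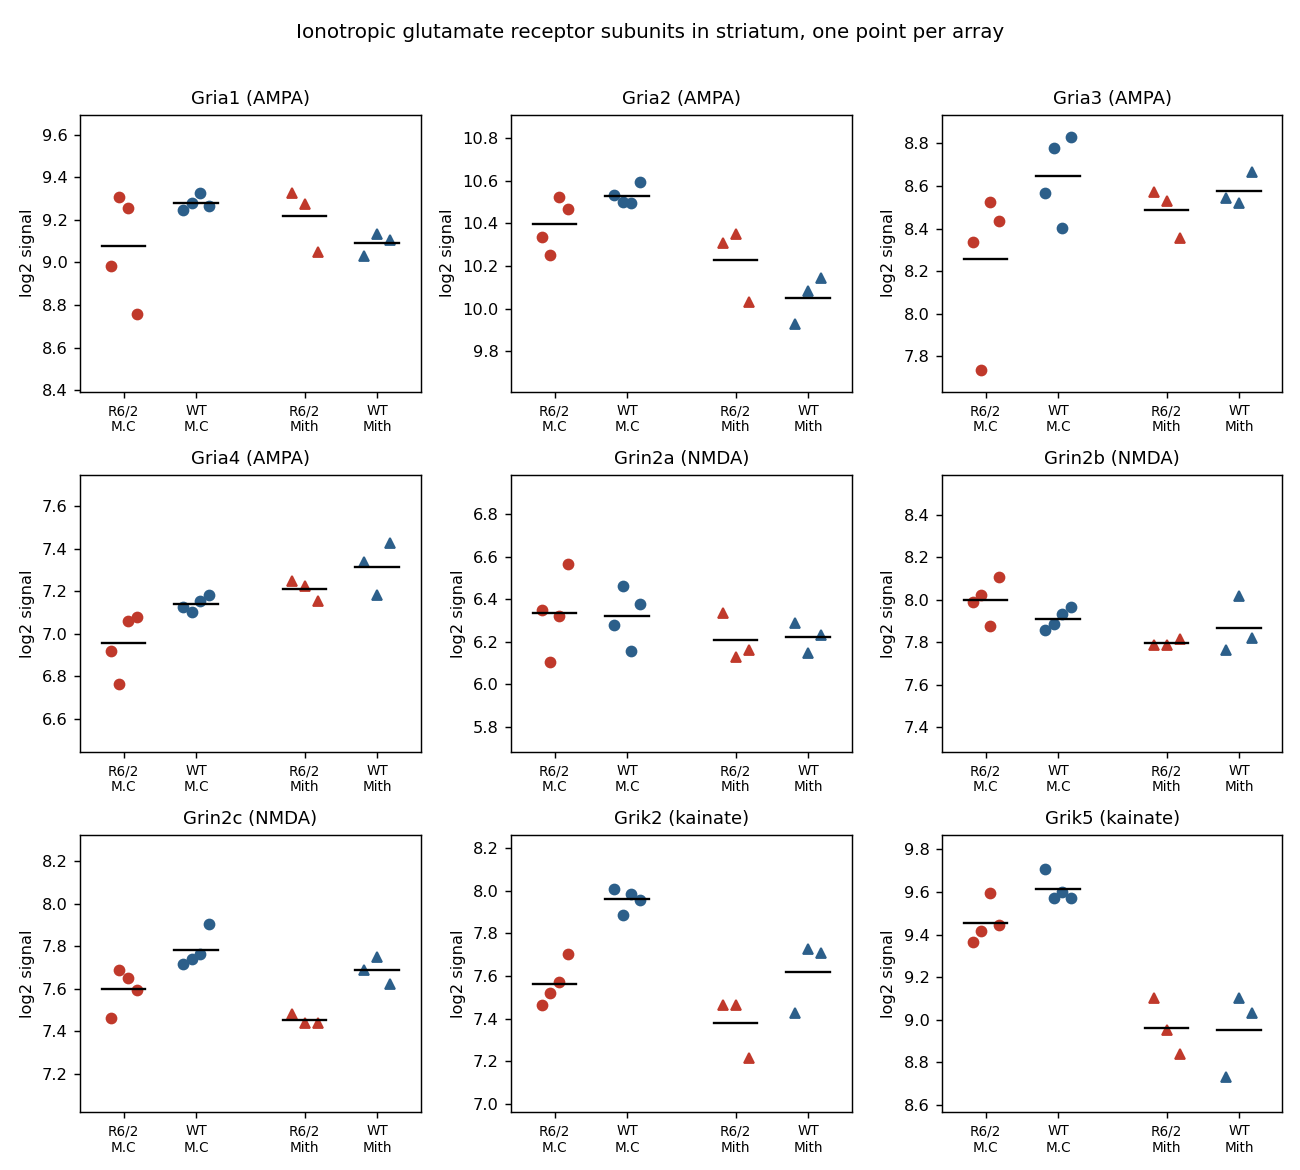
Log2 signal of the probe set of highest mean for each of the 9 genes (vertical axis, equal span in every panel), one point per array, R6/2 in red and wild-type (WT) in blue, M.C as circles and Mith as triangles, with black bars at group means. Grik2 and Gria4 in M.C and Grin2c in both cohorts lie lower in R6/2 without overlap, though Gria4 was not called. The share of all probe sets without overlap in M.C alone is not given, so separation there is a description only. The genotypes overlap for Grin2a and for the main Grin2b probe set.

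The largest change among the 12 probe sets was that of Grik2, 1 of the 2 kainate members. Grik2 was at 7.47, 7.52, 7.57 and 7.70 in the 4 R6/2 arrays of M.C, against 8.01, 7.89, 7.98 and 7.96 in wild-type. In Mith it was at 7.46, 7.46 and 7.22 in R6/2 arrays, against 7.43, 7.73 and 7.71 in wild-type. In M.C every R6/2 array lay below every wild-type array, while in Mith wild-type replicate 5 lay within the R6/2 range. Grik2 fell by 0.33 ± 0.06 (95% interval -0.46 to -0.19, adjusted p = 0.0123). Within cohorts, in 1 fit over all 14 arrays, it was at -0.40 ± 0.08 for M.C (adjusted p = 0.0152) and -0.24 ± 0.10 for Mith (adjusted p = 0.425). Fitted to each cohort's arrays separately, the SE was 0.07 for M.C (adjusted p = 0.0129) and 0.11 for Mith (adjusted p = 0.579). In the fit over all arrays it was the one member called within a cohort: 1 of 12 in M.C beside 3.21% of all probe sets, and 0 of 12 in Mith beside 0.0221%. In Mith 2 of the 12, Grik2 and Grin2c, had an unadjusted p under 0.05, beside 9.8% of all probe sets, which is near that share.

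Grik5, a kainate subunit that forms channels only together with another subunit such as Grik2, did not pass. It was at 9.36, 9.42, 9.59 and 9.44 in R6/2 arrays of M.C, against 9.71, 9.57, 9.60 and 9.57 in wild-type. In Mith it was at 9.10, 8.95 and 8.84 in R6/2 arrays, against 8.73, 9.10 and 9.03 in wild-type. The genotypes overlapped in both cohorts, and the change was -0.09 ± 0.07 (95% interval -0.23 to 0.06, adjusted p = 0.593).

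The balance of the 2 kainate subunits differed by genotype. The within-array difference, Grik5 minus Grik2, averaged 1.76 ± 0.190 in R6/2 and 1.52 ± 0.175 in wild-type arrays (SD, n = 7 each), where the size of the offset reflects the probe sets and only its change is compared. It rose by 0.24 ± 0.04 in R6/2, higher in all R6/2 than in all wild-type arrays within each cohort, with 0.24 in M.C and 0.25 in Mith. The exact permutation p within cohorts was 0.00143, two-sided and the smallest that 1400 arrangements can give, and 0.00429 adjusted over the 3 subunit differences tested. This shows unequal change of the pair, not that Grik5 was unchanged.

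**Figure D2:**
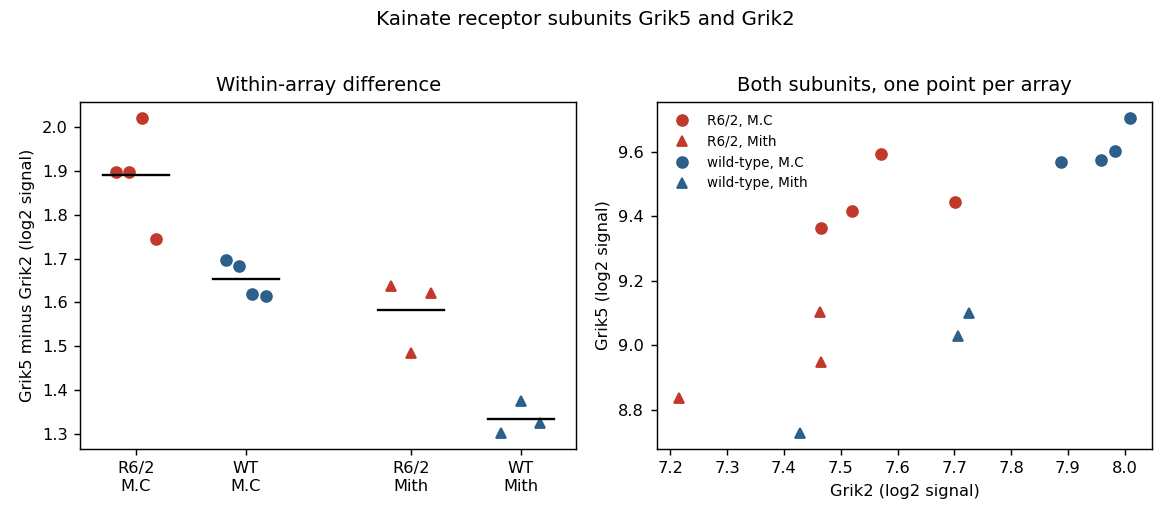
Left, the within-array difference of Grik5 minus Grik2 log2 signal by genotype and cohort, with black bars at group means; right, Grik5 against Grik2 log2 signal, one point per array. In each cohort all R6/2 arrays lie above all wild-type arrays in the difference.

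The promoters of the pair are shown because the transcripts moved apart, with that of Grin2c as the other member that fell. RefSeq promoter windows, from 250 bases before to 50 after the annotated start on GRCm38.p6, were at hand for 6 of the 10 genes: Gria2, Gria4, Grin1, Grin2c, Grik2 and Grik5. All 3 below lie on the minus strand and read 5′ to 3′, at chr10:49788705-49789004 for Grik2, chr7:25072320-25072619 for Grik5 and chr11:115267194-115267493 for Grin2c. Capitals mark matches on either strand to GGGCGG, the GC box that Sp1 family factors can bind, to TGACG, the core of the cyclic AMP response element, or to GCGNGGGCG, a site of Egr factors.
Grik2: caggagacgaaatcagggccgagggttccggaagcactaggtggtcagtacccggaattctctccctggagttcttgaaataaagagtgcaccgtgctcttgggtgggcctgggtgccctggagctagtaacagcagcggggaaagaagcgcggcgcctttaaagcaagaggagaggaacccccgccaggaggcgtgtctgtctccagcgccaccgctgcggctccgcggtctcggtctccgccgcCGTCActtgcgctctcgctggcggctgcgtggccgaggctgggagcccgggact
Grik5: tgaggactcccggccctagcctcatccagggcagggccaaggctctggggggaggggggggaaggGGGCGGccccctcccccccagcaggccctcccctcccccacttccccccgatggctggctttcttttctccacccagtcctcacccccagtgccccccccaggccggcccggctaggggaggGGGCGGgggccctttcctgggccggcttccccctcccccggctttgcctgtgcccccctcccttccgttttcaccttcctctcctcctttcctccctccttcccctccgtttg
Grin2c: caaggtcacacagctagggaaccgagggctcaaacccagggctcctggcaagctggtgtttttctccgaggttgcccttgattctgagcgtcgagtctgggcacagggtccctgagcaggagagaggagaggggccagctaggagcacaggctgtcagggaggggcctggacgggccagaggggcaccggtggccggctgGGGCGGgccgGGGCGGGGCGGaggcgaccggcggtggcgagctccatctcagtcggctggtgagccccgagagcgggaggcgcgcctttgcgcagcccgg

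The windows differed in these letters. Grik2 held 1 TGACG match and no GC box, whereas Grik5 held 2 GC boxes and Grin2c 3, of which the last pair overlap, and neither held TGACG. No Egr match lay in the 3 windows. The GC box was present in 35.7% of 32851 promoter windows, TGACG in 20.8% and the Egr site in 5.55%. The windows were 64.7% G and C for Grik2, 72% for Grik5 and 70% for Grin2c, against a median of 52.7%. A match describes the sequence and not binding, and a link of these letters to the changes was not tested.

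Among the NMDA subunits Grin2c alone was called, and its change was not tested against those of Grin2a and Grin2b. Grin2c was at 7.46, 7.69, 7.65 and 7.60 in R6/2 arrays of M.C, against 7.71, 7.74, 7.76 and 7.91 in wild-type. In Mith it was at 7.48, 7.44 and 7.44 in R6/2 arrays, against 7.69, 7.75 and 7.62 in wild-type. Every R6/2 array lay below every wild-type array of its cohort, which held for 1 of the 12 probe sets and for 1.05% of all. Grin2c fell by 0.20 ± 0.05 (95% interval -0.31 to -0.10, adjusted p = 0.0408). The cohorts gave similar sizes, -0.18 ± 0.07 for M.C (adjusted p = 0.177) and -0.23 ± 0.08 for Mith (adjusted p = 0.322). The call is near its threshold: leaving out single arrays ended it in 11 of 14 cases. Over all 14 the change ran from -0.22 to -0.18 and the adjusted p from 0.0375 to 0.0959. It was held without R6/2 replicate 2, R6/2 replicate 4 or wild-type replicate 5.

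Grin2a and Grin2b, the main partners of Grin1 in forebrain neurons, gave no call. Grin2a ran from 6.10 to 6.56 in R6/2 arrays with a median of 6.32, and from 6.15 to 6.46 with a median of 6.28 in wild-type. Its change was 0.00 ± 0.07 (95% interval -0.14 to 0.15), and its mean of 6.28 was the only one of the 12 below the array median. The brighter Grin2b probe set ran from 7.79 to 8.11 in R6/2 arrays, median 7.88, and from 7.76 to 8.02 in wild-type, median 7.89. That gave 0.02 ± 0.06 (95% interval -0.10 to 0.14). The other Grin2b probe set gave -0.14 ± 0.12 (95% interval -0.40 to 0.12), with a wide spread in wild-type arrays, 7.43 to 8.39, and 7.44 to 7.98 in R6/2 arrays. Leaving out 1 array moved it between -0.23, without wild-type replicate 5, and -0.05, without wild-type replicate 6. The balance of these subunits shifts towards Grin2a as the forebrain matures. The Grin2a minus Grin2b difference was -1.63 ± 0.15 in R6/2 and -1.61 ± 0.16 in wild-type arrays (SD, n = 7 each). It changed by -0.02 ± 0.09 (exact permutation p = 0.843, adjusted p = 0.843).

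No AMPA subunit was called. Gria2, which makes the channel impermeable to calcium once its message is edited, ran from 10.03 to 10.53 in R6/2 arrays, median 10.34, and from 9.93 to 10.59 in wild-type, median 10.50. Its change was -0.00 ± 0.07 (95% interval -0.15 to 0.15), and its other probe set gave -0.03 ± 0.09. Gria1, the subunit added to synapses during potentiation, ran from 8.76 to 9.32 in R6/2 arrays, median 9.26, and from 9.03 to 9.33 in wild-type, median 9.24. That probe set gave -0.06 ± 0.08 (95% interval -0.24 to 0.12) and the other -0.19 ± 0.12 (95% interval -0.44 to 0.06), which was -0.10 without R6/2 replicate 2. The Gria1 minus Gria2 difference averaged -1.19 ± 0.28 in R6/2 and -1.13 ± 0.17 in wild-type arrays, a change of -0.06 ± 0.09 (exact permutation p = 0.564, adjusted p = 0.843).

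Gria3 and Gria4 lay lower without passing. Gria3 was at 8.34, 7.74, 8.52 and 8.44 in R6/2 arrays of M.C, against 8.57, 8.78, 8.40 and 8.83 in wild-type. In Mith it was at 8.57, 8.53 and 8.36 in R6/2 arrays, against 8.54, 8.52 and 8.67 in wild-type, so that the genotypes overlapped in both cohorts. The change was -0.26 ± 0.11 (unadjusted p = 0.0279, adjusted p = 0.250), and -0.16 without R6/2 replicate 2. Gria4, a subunit of fast-gating receptors, was at 6.92, 6.76, 7.06 and 7.08 in R6/2 arrays of M.C, against 7.13, 7.10, 7.16 and 7.18 in wild-type. In Mith it was at 7.25, 7.23 and 7.15 in R6/2 arrays, against 7.34, 7.18 and 7.43 in wild-type. R6/2 and wild-type arrays did not overlap in M.C, for which no share of all probe sets is given, and did in Mith. The change was -0.15 ± 0.06 (unadjusted p = 0.0180, adjusted p = 0.202).

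**Figure D3:**
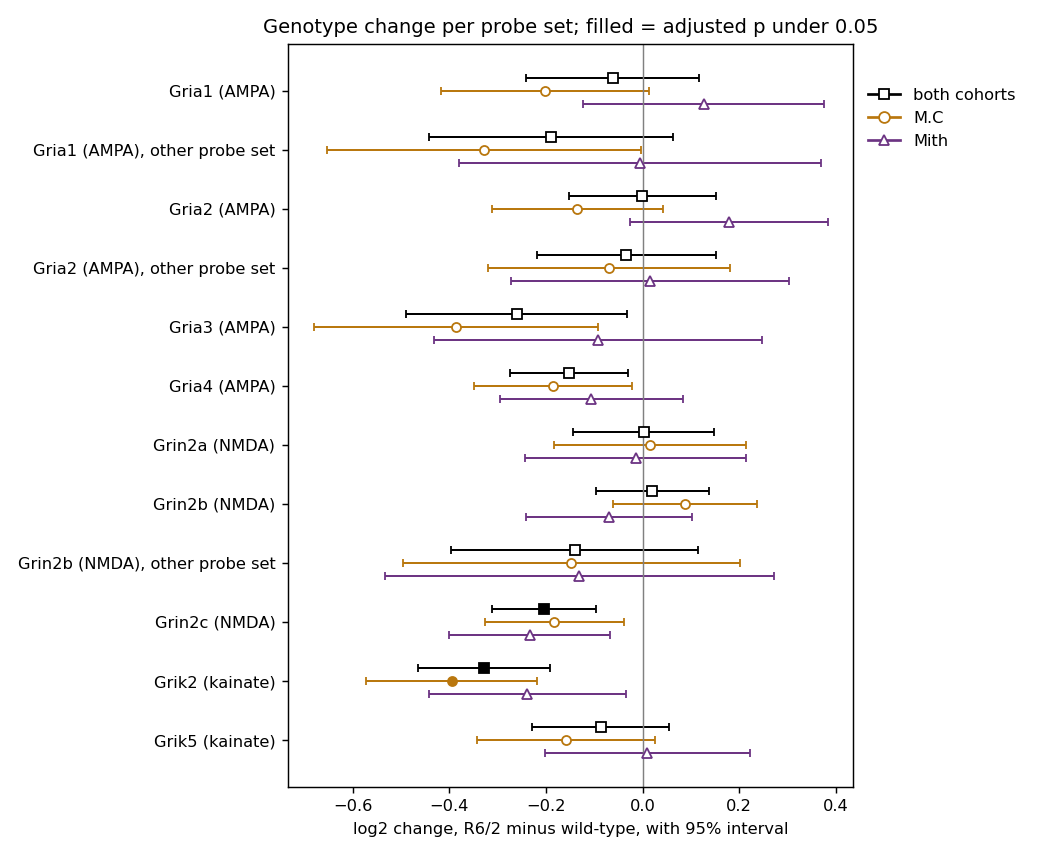
Log2 change (horizontal axis, R6/2 minus wild-type) of the 12 probe sets with 95% intervals, over both cohorts (squares), in M.C (circles) and in Mith (triangles); filled symbols have an adjusted p under 0.05. Filled symbols are Grin2c and Grik2 over both cohorts and Grik2 in M.C.

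By class, 0 of 4 AMPA genes, 1 of 3 NMDA genes and 1 of 2 kainate genes fell, beside 2.07% of all genes called lower. The NMDA and kainate counts are each a single gene, Grin2c and Grik2, and do not rank the classes. Their median changes were -0.11, 0.00 and -0.21 in that order. In M.C the medians were -0.19 for AMPA, 0.02 for NMDA and -0.28 for kainate genes, and in Mith they were 0.02, -0.07 and -0.11. All 4 AMPA genes lay below 0 in M.C and 2 of 4 in Mith, beside 46.9% and 49.6% of all probe sets. The interaction of genotype with cohort had an adjusted p of at least 0.460 for every member probe set, and over the array it called 0 of 22626 in limma, with 2213 at an unadjusted p under 0.05. Its lowest unadjusted p among the 12 was 0.0258, for the brighter Gria2 probe set, with -0.13 ± 0.08 for M.C and 0.18 ± 0.10 for Mith. Classes hold 2 to 4 member genes and leave out Grin2d, Grin3b, Grik1 and Grik3, which are given below. No test was run on class medians.

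Members differed between the cohorts, as did many probe sets of the array. The labels of the cohorts give no difference other than the drug study. With genotype as a term, 5 of the 12 probe sets were called, beside 32.3% of all. That is near this share, so a cohort difference was not particular to the members. Grik5 was higher in M.C by 0.58 ± 0.07 (adjusted p = 1.51e-05), with every M.C array above every Mith array. Both Gria2 probe sets (0.32 ± 0.07 and 0.28 ± 0.09) and Grik2 (0.26 ± 0.07) were higher in M.C, and Gria4 was lower there, at -0.21 ± 0.06.

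The Actb 3′ minus 5′ difference, which was higher in R6/2 arrays, stood beside some of these changes. Adding it to the fit left 56 calls over the whole array and 0 among the 12, and its part in the changes was not tested further. Grik2 was then at -0.23 ± 0.08 (adjusted p = 0.256), and Grin2c at -0.23 ± 0.07 (adjusted p = 0.178), no smaller than without it. Gria3 was then at -0.04 ± 0.11 and Gria4 at -0.05 ± 0.07. The Grik5 minus Grik2 difference was 0.21 ± 0.05 with that covariate, and Gria1 minus Gria2, which had not passed, was then at -0.25 ± 0.08. No p-value is given for either, because permuting genotype does not keep its link with the covariate, so the permutation is not exact.

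**Figure D4:**
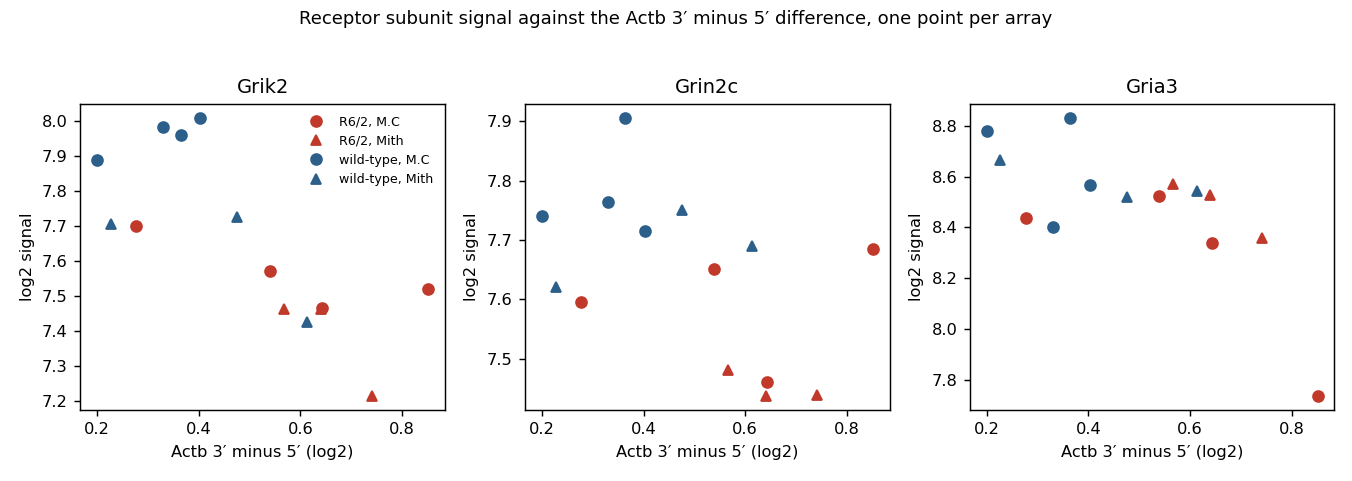
Log2 signal of Grik2, Grin2c and Gria3 (vertical axes) against the Actb 3′ minus 5′ difference (horizontal axis, log2), one point per array, R6/2 in red and wild-type in blue, M.C as circles and Mith as triangles. The Actb difference runs from 0.28 to 0.85 in R6/2 and from 0.20 to 0.61 in wild-type arrays.

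Markers of the cells that carry these receptors were looked at beside them. Of 13 measured genes shared by projection neurons 9 fell, with a median of -0.61, and their mean deviation from the gene averages ran from -0.52 to -0.08 in R6/2 and from -0.28 to 0.55 in wild-type arrays. In M.C this level was -0.52 to -0.15 in R6/2 against 0.34 to 0.55 in wild-type arrays, without overlap, while in Mith the genotypes overlapped. Of 9 interneuron genes 3 fell, with a median of -0.25, and their levels did not overlap in either cohort. In M.C these were -0.24 to -0.05 in R6/2 against -0.02 to 0.23 in wild-type arrays. In Mith they were -0.03 to 0.01 in R6/2 against 0.12 to 0.20 in wild-type arrays. None of 10 astrocyte genes was called, with a median of -0.21 and levels of -0.24 to 0.14 in R6/2 and 0.03 to 0.30 in wild-type arrays. Their M.C levels did not overlap, at -0.24 to -0.08 in R6/2 and 0.03 to 0.14 in wild-type arrays, while those in Mith did. Of 8 thalamic genes 1 fell, with a median of 0.01 in M.C and -0.68 in Mith. Grin2c, which is also expressed in thalamus, had estimates of -0.18 for M.C and -0.23 for Mith, neither of them called. None of 7 cortical glutamatergic genes was called, with a median of 0.04. Their levels overlapped in M.C, and in Mith were higher in R6/2, at 0.005 to 0.068 against -0.132 to -0.001. Of 9 mature oligodendrocyte genes 6 fell, with a median of -0.35, and their levels ran from -0.61 to 0.36 in R6/2 and from -0.30 to 0.66 in wild-type arrays. In M.C these levels were -0.61 to -0.34 in R6/2 against -0.30 to 0.18 in wild-type arrays, without overlap. In Mith they were -0.01 to 0.36 in R6/2 against 0.54 to 0.66 in wild-type arrays, also without overlap. All 3 measured indirect-pathway genes fell, with a median of -0.56, and their levels did not overlap in either cohort. In M.C these were -0.49 to -0.10 in R6/2 against 0.35 to 0.53 in wild-type arrays. In Mith they were -0.41 to -0.27 against -0.12 to 0.29. None of 5 direct-pathway genes was called, with a median of 0.04 and 2 of the 5 below 0. Pdyn was nearest, at -0.33 ± 0.09 (adjusted p = 0.0537), with -0.55 for M.C and -0.04 for Mith. Direct-pathway levels did not overlap in M.C, at -0.20 to -0.06 in R6/2 against -0.02 to 0.06 in wild-type arrays, and overlapped in Mith. None was called among 9 microglial, 7 vessel and 6 choroid plexus genes, with medians of -0.06, -0.08 and -0.02. Microglial levels did not overlap in M.C, at -0.13 to -0.02 in R6/2 against 0.03 to 0.18 in wild-type arrays, and overlapped in Mith. Vessel levels overlapped in M.C and did not in Mith, at -0.17 to -0.10 in R6/2 against -0.04 to 0.01 in wild-type arrays. The part of these cells in the subunit values was not tested.

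The rest of the glutamate receptor system was given by lists of 83 further genes, of which 59 were measured. In all 6 fell and 0 rose, beside 2.07% of all genes called lower, and the median was -0.11 where that of all genes was 0.01. Of the 5 measured other ionotropic subunits, Grin2d, Grin3b, Grik1, Grik3 and Grid1, none was called, and they ran from -0.08 to 0.03. The kainate subunits among them, Grik1 and Grik3, were at 0.03 and 0.01. Of 14 measured genes for auxiliary and synapse-organising proteins, 2 fell and 12 did not pass, with a median of -0.16. Cacng4, a transmembrane AMPA receptor regulatory protein, ran from 9.13 to 9.52 in R6/2 and from 9.55 to 9.86 in wild-type arrays, without overlap. It fell by 0.39 ± 0.08, to 76.6% of wild-type (adjusted p = 0.0127). Nptx2, a pentraxin that clusters AMPA receptors, fell by 0.32 ± 0.07 (adjusted p = 0.0192), while its other probe set gave 0.02.

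Of 16 trafficking and anchoring genes 1 fell. This was Dlg4, which encodes the scaffold PSD-95, at -0.44 ± 0.11 (adjusted p = 0.0382), called in 6 of 14 fits with 1 array left out and with other probe sets at -0.64 and 0.03. Of 14 genes for kinases and phosphatases that act on the receptors 3 fell. Of these, Ptpn5 is also counted among the fallen projection neuron genes above. Ppp3ca, the catalytic subunit of calcineurin, fell by 0.45 ± 0.08 (adjusted p = 0.00848), running from 10.91 to 11.64 in R6/2 and from 11.64 to 11.92 in wild-type arrays, overlapping at their edges. Ptpn5, a striatum-enriched tyrosine phosphatase that acts on NMDA receptors, fell by 0.55 ± 0.11, and Camk2b, a calcium and calmodulin dependent kinase, fell by 0.42 ± 0.09, called in 10 of 14 fits with 1 array left out. None of the 3 editing enzymes was called: Adar was at -0.26 ± 0.07 (adjusted p = 0.0638) and Adarb1, which edits the Gria2 message, at -0.22 ± 0.07 (adjusted p = 0.118). None of 6 uptake and packaging genes was called, with a median of -0.26, and Slc1a2 and Slc1a3 are also in the astrocyte list and Slc17a6 in the thalamic list. The 1 measured metabotropic receptor, Grm8, was at 0.03. With the Actb covariate none of the 6 fallen genes was called, at -0.59 to -0.24, and without the cohort term Cacng4 alone of the 6 was called.

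**Figure D5:**
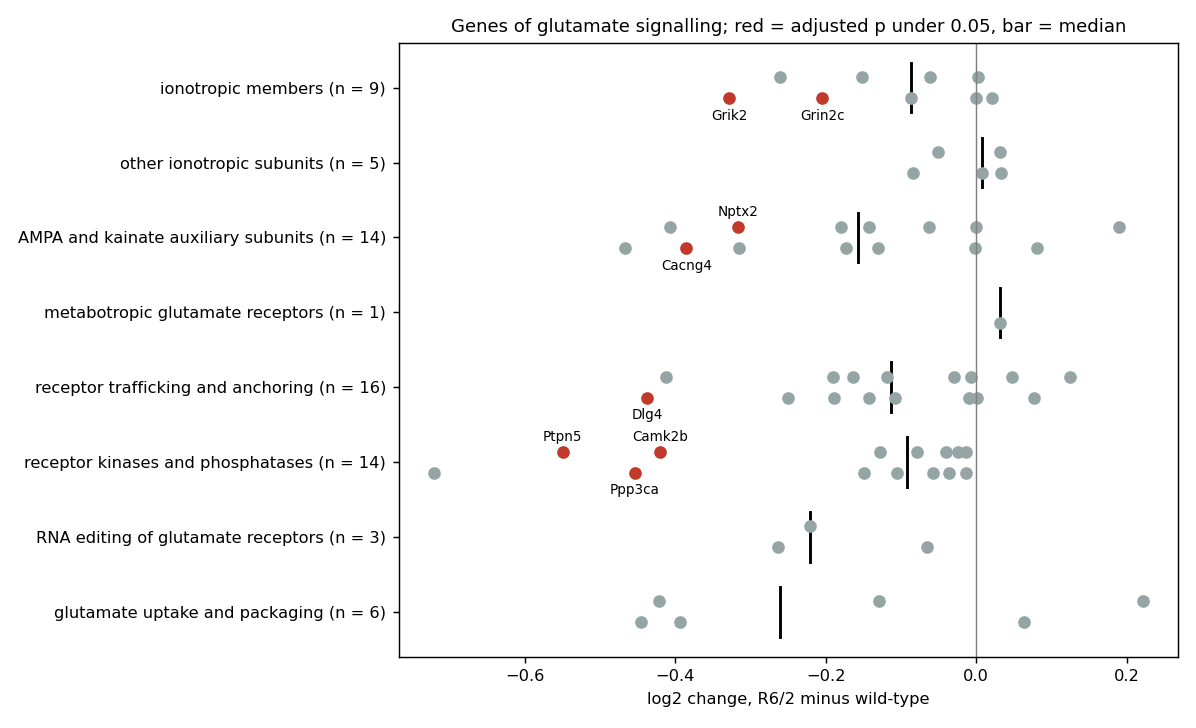
Log2 change (horizontal axis, R6/2 minus wild-type, both cohorts) of each measured gene by list, 1 point per gene, with black bars at list medians and red points at an adjusted p under 0.05. Red points lie below 0: Grik2 and Grin2c among the members, and Cacng4, Nptx2, Dlg4, Ptpn5, Ppp3ca and Camk2b in the other lists.

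The genes whose signal followed the called members most closely were found over the 14 arrays after the cohort means were taken off. For Grik2 they were Pde1b, a phosphodiesterase of striatal projection neurons (Pearson r = 0.97), Cacng4 (0.96) and Rgs4, a regulator of G protein signalling (0.96). For Grin2c they were Plat, tissue plasminogen activator (0.93), Syne1, a nuclear envelope protein (0.93) and Tspan2, a tetraspanin of oligodendrocytes (0.92). These are the highest of 12384 genes compared, they include the shared genotype difference, and they describe these arrays only.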

How the data were processed

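The 14 arrays were taken from the authors' deposited log2 signals per probe set, a unit read from their range of 2.96 to 14.5. The authors' summarisation and normalization are not given in the sources used here. Excluding 64 controls, arrays with deposited medians between 7.07 and 7.17 were shifted to 1 median. Symbols came from the platform table, updated by gene ID with RefSeq genes of GRCm38.p6: 20380 probe sets had 1 symbol, 691 several and 1555 none. No detection calls were used.

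Genotype was tested per probe set across all 22626 with limma 3.58.1 (R 4.3.3), cohort as a term, two-sided, adjusted by Benjamini-Hochberg; values within cohorts, the interaction and the cohort difference came from the same arrays. In simulated data of this design the fit recovered 53% of changes of 0.3 and 94% of changes of 0.6 on the log2 scale. The simulated noise was independent between probe sets and held no RNA integrity difference by genotype, so these rates may not hold for the real arrays. The 3 subunit differences used exact permutation of genotype within cohorts. Every member probe set is named, with up to 3 called genes per pathway list, smallest p first, and the 3 most correlated genes per called member; other genes quoted were picked with their values known. The members and lists were chosen with earlier results of these data known. Figures used matplotlib 3.10.9. Alternatives were other scaling, variance models, array weights, cohort and RNA integrity terms, single cohorts, brighter probe sets, a stricter threshold, probe set means and each array left out.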

Additional observations from a re-analysis of the deposited data

Results flagged for a closer look

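Gria3 in R6/2 replicate 2, at a log2 signal of 7.74, lay far below the other R6/2 arrays, the nearest of which was at 8.34. Its gap to the nearest was 0.722 of the range of the 7 R6/2 arrays. The outermost value was looked at in 24 sets of 7 arrays, 12 probe sets in each genotype, and 1 was picked out. Chance picks out about 1 in 20, or 1.2 of 24, so the number found is no more than chance gives. Without R6/2 replicate 2 the Gria3 change was -0.16 (limma, adjusted p = 0.343), against -0.26 with all arrays.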

How the results depend on the processing

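The count of called member genes, 2, stayed 2 under a trended and robust prior, array weights, the brighter probe sets alone and averaging of each gene's probe sets. It was 1 with values as deposited, with quantile normalization and in M.C alone (a separate fit to that cohort's arrays, as for Mith alone), and 0 without the cohort term, with the Actb covariate, in Mith alone and at an adjusted p under 0.01. Leaving out 1 array gave 1 to 2, and the gene lost in those 11 cases was Grin2c. Grik2 kept its call in all 14 (limma, adjusted p 0.00185 to 0.0367) and lost it without the cohort term (adjusted p = 0.148), with the Actb covariate, in Mith alone and at an adjusted p under 0.01. The 578 calls over the whole array became 100 without the cohort term, 1333 with array weights, 56 with the Actb covariate, 0 in Mith alone, 131 at the stricter threshold and 280 to 879 with 1 array left out, highest without wild-type replicate 5. The AMPA median was 0.017 in Mith alone and -0.13 to -0.086 with 1 array left out. The NMDA median was -0.070 in Mith alone, -0.092 over the brighter probe sets, where Grin2a has no value, -0.060 with probe sets averaged and -0.039 to 0.019 with 1 array left out. The kainate median stayed below 0, at -0.25 to -0.18 with 1 array left out.

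Signs turned for changes near 0. The main Gria2 probe set was at 0.018 as deposited, 0.060 with quantile normalization, 0.11 with the Actb covariate, 0.18 in Mith alone and -0.041 to 0.037 with 1 array left out. The other was at 0.012 with quantile normalization, 0.034 with array weights, 0.015 in Mith alone and -0.075 to 0.036 with 1 array left out. Grin2a was at -0.0075 with quantile normalization, -0.011 with array weights, -0.014 in Mith alone and -0.039 to 0.043 with 1 array left out. Grin2b was at -0.070 in Mith alone, -0.060 with probe sets averaged and -0.0051 to 0.057 with 1 array left out. In Mith alone Gria1 was at 0.13 and Grik5 at 0.0094, and Gria1 ran from -0.099 to 0.0076 with 1 array left out. Grin2a minus Grin2b was 0.097 with the Actb covariate, 0.063 with probe sets averaged and -0.067 to 0.032 with 1 array left out. Gria1 minus Gria2 was -0.25 with the Actb covariate and -0.13 to 0.0092 with 1 array left out. Grik5 minus Grik2 ran from 0.22 to 0.27 with 1 array left out and passed in each case. The cause of these shifts was not tested. No paired analysis was possible because the titles carry no number that links an R6/2 to a wild-type sample, and the replicate numbers used here only follow the order of the record within each genotype.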
